A study of Gorilla gorilla gorilla with 13 samples.

Results

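Immediate early genes were followed through sorted cells of gorilla cerebral organoids, brain-like tissue cultured from pluripotent stem cells. The 9 members, taken by gene symbol, were FOS, FOSB, JUN, JUNB, JUND, EGR1, IER2, ARC and NR4A1, out of 18137 genes counted on the human build hg38. The organoids came from 1 induced pluripotent stem cell line, GC1, and were collected at week 8 of culture, within 3 days. Flow cytometry gave 2 libraries of BCL11B+ neurons (N), 3 of basal intermediate progenitor cells (bIP), 4 of basal radial glia (bRG) and 4 of apical radial glia (aRG). Each was made from RNA of 10000 cells with a Smart-seq2 protocol, and no treatment or genotype separated the groups. The labels do not tell whether replicate libraries stem from different cultures, and each p-value therefore measures the spread between libraries alone, which may be technical.

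Immediate early genes are transcribed within minutes of a stimulus without new protein synthesis. Growth factors act on them through ERK signalling and serum response factor, and calcium entry in active neurons acts through CREB and MEF2 factors. FOS and JUN proteins pair into AP-1, a transcription factor, whereas EGR1 and NR4A1 are transcription factors of other families, IER2 is a nuclear regulator and ARC is a postsynaptic protein. Taking tissue apart into single cells is also known to induce several of them. Unsorted organoids were not analysed here, so the part of sorting in these levels was not tested.

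Library totals in the hg38 table were 5464721 to 12524938 counts. The summed level of 9 radial glia markers was 124 to 163 CPM (counts scaled to the library total) in N, 138 to 168 in bIP, 2436 to 4359 in bRG and 3126 to 4204 in aRG. Summed neuron markers reached 5563 to 5761 CPM in N. Outer radial glia markers did not set bRG (1193 to 2127 CPM) apart from aRG (1693 to 2272). The libraries labelled bIP went against their name in part. Their summed intermediate progenitor markers, at 223 to 404 CPM, lay below those of bRG (741 to 987), while neuron markers (3560 to 3905, against 636 to 1051 in bRG) and Cajal-Retzius markers (1177 to 3394, against 48.3 to 109) lay above. In bulk RNA, fewer cells of a type and less RNA per cell cannot be told apart. Markers of microglia summed to 31.6 to 59.6 CPM in all libraries, of which CSF1R made up more than all the others together in every library. None of their 9 genes was at 0 throughout a population, and 3 to 5 of the 9 averaged under 1 CPM in each.

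Immediate early transcripts were present in every library at low to middling levels. The 9 genes together made up 124 to 141 CPM in N, 91.5 to 137 in bIP, 76.0 to 115 in bRG and 110 to 223 in aRG. The highest place that any of them took in any library was 5764th of 18137 genes, by FOS in aRG library 3, and the lowest was 16046th, by ARC in bRG library 2. All 9 passed the low-count filter. An edgeR quasi-likelihood test of any difference among the 4 populations called FOS (adjusted p = 0.0167), EGR1 (adjusted p = 0.00150) and ARC (adjusted p = 0.00558), that is 3 of 9, where 22.5% of all 16804 genes tested were called. A call here is a Benjamini-Hochberg adjusted p under 0.05 over all genes tested. DESeq2 called these 3 and also FOSB and JUNB. Over all 16804 genes it called 4959, against 3788 by edgeR.

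**Figure D1:**
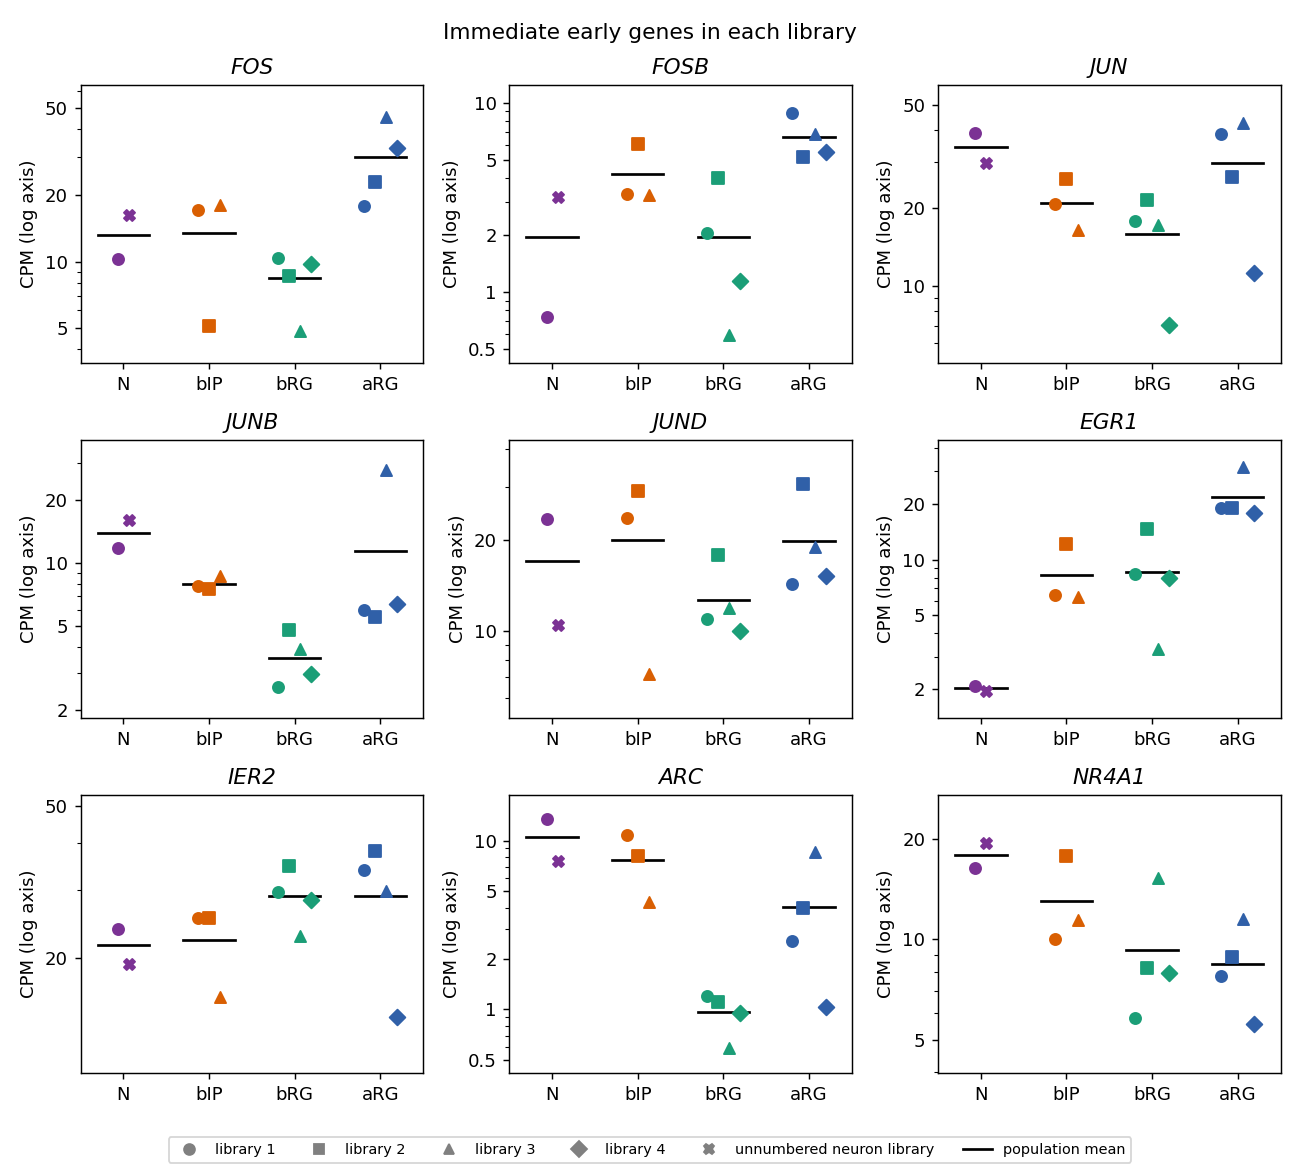
CPM on a log axis (vertical) of each gene in each of the 13 libraries, by population (horizontal), where symbols give the library number and bars the population mean. EGR1 stood at 1.96 and 2.08 CPM in N and at 17.7 to 31.6 in aRG, and ARC at 0.589 to 1.20 CPM in bRG and 4.31 to 13.4 in bIP and N.

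FOS, the prototype AP-1 partner of JUN, was highest in apical radial glia. It measured 10.3 and 16.2 CPM in N, 17.2, 5.09 and 18.2 in bIP, 10.4, 8.57, 4.83 and 9.71 in bRG, and 17.9, 23.0, 45.5 and 33.0 in aRG. Every bRG library lay below every aRG library, while the ranges of bIP and aRG met at their edges. The level fell to 8.38 ± 2.49 CPM in bRG, against 29.8 ± 12.2 in aRG (SD, n = 4 each), an edgeR log2 change of -1.84 ± 0.428 (SE, adjusted p = 0.0387) or 3.57-fold lower. The call also held in the table counted on the gorilla build gorGor6 (-1.91, adjusted p = 0.0472). It ended in 7 of 13 removals of a library, among them aRG library 3 (-1.56, adjusted p = 0.161), and when aRG library 3 and bRG library 3 were both left out (-1.37, adjusted p = 0.192). Against aRG, the log2 fold change was -1.17 in N (SE 0.532, edgeR adjusted p = 0.145) and -1.15 in bIP (SE 0.459, edgeR adjusted p = 0.0971). Neither was called by edgeR, and DESeq2 called the second (adjusted p = 0.0478).

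FOSB, a close relative of FOS, was the member with the fewest counts, 5 to 71 in a library. It measured 0.735 and 3.17 CPM in N, 3.28, 6.04 and 3.24 in bIP, 2.05, 4.00, 0.589 and 1.14 in bRG, and 8.85, 5.14, 6.80 and 5.46 in aRG. As with FOS, all bRG values were under all aRG values, but the difference was not called (edgeR log2 change -1.75 ± 0.619 SE, adjusted p = 0.318). The 2 neuron libraries, with 6 and 34 counts, lay below all aRG libraries and within the bRG range, and no difference of N was called (edgeR adjusted p = 0.150 against aRG).

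Markers of other cells also differed between bRG and aRG. Between bRG and aRG, the 7 choroid plexus markers summed to 233 to 1265 CPM against 1619 to 7821, and the 7 mesenchyme markers to 72.5 to 97.8 against 110 to 334, with no overlap and none of these genes at 0. Most of the choroid plexus sum was TTR, at 170 to 1177 CPM in bRG and 1541 to 7626 in aRG, and the other 6 genes summed to 58.2 to 88.5 CPM in bRG and 77.6 to 208 in aRG, which overlapped. Mural cell markers also lay lower in bRG (244 to 312 CPM, against 314 to 392 in aRG), and intermediate progenitor markers lay higher (741 to 987 CPM, against 359 to 587 in aRG), both without overlap. These gaps depended on the most abundant gene of each list. Without NOTCH3 the mural sum was 68.2 to 78.4 CPM in bRG and 59.1 to 131 in aRG. Without COL1A1 the mesenchyme sum was 55.4 to 71.9 in bRG and 59.5 to 212 in aRG. Without EOMES the intermediate progenitor sum was 421 to 711 in bRG and 319 to 424 in aRG. The ranges then overlapped in each list. Endothelial markers summed to 21.7 to 97.1 CPM in bRG and 57.8 to 125 in aRG, and their ranges overlapped. By library, these sums did not all follow FOS. Within aRG, library 3 had the most FOS (45.5 CPM) and the highest choroid plexus sum (7821 CPM). Library 1 of aRG had the least FOS (17.9 CPM) and the highest mesenchyme sum (334 CPM). The part of these other cells in the FOS difference was not tested. Heat shock genes, known to respond to cell stress, had a median log2 fold change of -0.60 over 16 genes tested (0.04 over all genes). HSPB1, a small heat shock protein, was the 1 of these 16 called, at 115 ± 11.6 CPM in bRG and 251 ± 69.1 in aRG (edgeR log2 change -1.12 ± 0.214 SE, adjusted p = 0.0085). HSPA1B, named after its values were seen, measured 10.4 ± 4.54 and 43.3 ± 42.5 CPM (edgeR adjusted p = 0.109).

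JUNB, an AP-1 subunit that often restrains JUN, was lowest in basal radial glia. It measured 11.8 and 16.1 CPM in N, 7.76, 7.53 and 8.72 in bIP, 2.56, 4.78, 3.89 and 2.95 in bRG, and 5.96, 5.57, 27.7 and 6.39 in aRG. No bRG library reached the lowest library of any other population, and aRG library 3 stood far above the other 3 of its group. JUNB rose to 14.0 ± 3.09 CPM in N (n = 2), against 3.55 ± 0.995 in bRG (n = 4), an edgeR log2 change of 1.97 ± 0.588 (SE, adjusted p = 0.0239). This call held in the gorGor6 table (2.08, edgeR adjusted p = 0.0287). It ended without N library 1 (2.18), without the unnumbered neuron library (1.73) and with the replicate number as a block (2.05), fits that keep 1 neuron library. It also ended without bRG library 1 (edgeR adjusted p = 0.0569) or 4 (0.0564), and in a fit of only these 2 populations (0.0524). Its log2 fold changes of 1.17 in bIP against bRG (edgeR adjusted p = 0.164) and of -1.68 in bRG against aRG (edgeR adjusted p = 0.189) were not called by edgeR. DESeq2 called the second (-1.65, adjusted p = 0.0416).

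JUN, the main dimer partner of FOS, measured 38.9 and 29.9 CPM in N, 20.8, 25.8 and 16.4 in bIP, 17.8, 21.4, 17.1 and 7.04 in bRG, and 38.5, 26.4, 42.6 and 11.2 in aRG. The population means ran from N (34.4 ± 6.36) over aRG (29.7 ± 14.1) and bIP (21.0 ± 4.71) to bRG (15.8 ± 6.14). No pair of neighbours in that order was called by edgeR, nor were its ends (log2 change 1.12 ± 0.466 SE in N against bRG, adjusted p = 0.103). Library 4 was the lowest of its population in both bRG and aRG.

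JUND, the member of the JUN family that many resting cells express, showed no order that held against its spread. It measured 23.5 and 10.4 CPM in N, 23.7, 29.1 and 7.19 in bIP, 10.9, 17.8, 11.9 and 9.99 in bRG, and 14.3, 30.7, 19.0 and 15.2 in aRG, and the ranges of all 4 populations overlapped. It was also the member whose counting was least certain. The gorGor6 table held 0.929 counts of JUND per hg38 count, against 1.91 to 2.34 for the other 8 members and 2.03 to 2.42 for the library totals.

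Counts of the 3 JUN family genes per count of FOS and FOSB were 6.72 and 2.91 in N, 2.55, 5.60 and 1.51 in bIP, 2.51, 3.50, 6.07 and 1.84 in bRG, and 2.20, 2.23, 1.71 and 0.853 in aRG. Gene lengths were not corrected for, so the ratio can be compared between libraries only. That comparison is limited too, since JUND is part of the JUN family count. Its gorGor6 counts per hg38 count ran from 0.688 to 1.27 between libraries. Both neuron libraries lay above all aRG libraries, and bIP and bRG each overlapped with aRG.

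EGR1, a zinc finger factor downstream of ERK signalling, was highest in apical radial glia and lowest in neurons. It measured 2.08 and 1.96 CPM in N, 6.42, 12.2 and 6.29 in bIP, 8.37, 14.6, 3.30 and 7.99 in bRG, and 19.0, 19.0, 31.6 and 17.7 in aRG. The aRG libraries lay above all others, the neuron libraries lay below all others, and bIP and bRG overlapped. EGR1 fell to 2.02 ± 0.0880 CPM in N (n = 2), against 21.8 ± 6.54 in aRG (n = 4), an edgeR log2 change of -3.43 ± 0.625 (SE, adjusted p = 0.000582) or 10.7-fold lower. That call held in all 13 removals of a library (-3.55 to -3.19) and in the gorGor6 table (-3.41, adjusted p = 0.000703).

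The other differences of EGR1 were less firm. In N against bRG it fell by 2.08 on the log2 scale (SE 0.588, edgeR adjusted p = 0.0177), with means of 2.02 and 8.56 CPM. This call ended without N library 1 (-2.11), without the unnumbered neuron library (-2.02) and with the replicate number as a block (-1.80), fits that keep 1 neuron library. It also ended in a fit of only these 2 populations (edgeR adjusted p = 0.110). In bIP against aRG it fell to 8.30 ± 3.37 CPM (n = 3), against 21.8 ± 6.54 (n = 4), an edgeR log2 change of -1.39 ± 0.468 (SE, adjusted p = 0.0461). That call ended in 10 of 13 removals (among them aRG library 3, adjusted p = 0.144), in the gorGor6 table (0.0881), with DESeq2 size factors (0.0506) and without a low-count filter (0.05005). Its log2 fold change of -1.35 in bRG against aRG was not called (SE 0.424, edgeR adjusted p = 0.210), although the groups did not overlap. Between N and bIP it was -2.03 (SE 0.604, edgeR adjusted p = 0.380), which DESeq2 called (adjusted p = 0.0405).

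ARC, a neuronal protein of dendrites that moves glutamate receptors and forms capsid-like particles, had the reverse pattern between neurons and basal radial glia. It measured 13.4 and 7.56 CPM in N, 10.7, 8.06 and 4.31 in bIP, 1.20, 1.11, 0.589 and 0.952 in bRG, and 2.53, 4.00, 8.62 and 1.03 in aRG. All N and bIP libraries lay above all bRG libraries, which held 5 to 10 counts each, and aRG overlapped with N, bIP and bRG. ARC rose to 10.5 ± 4.10 CPM in N (n = 2), against 0.962 ± 0.269 in bRG (n = 4), an edgeR log2 change of 3.43 ± 0.697 (SE, adjusted p = 0.00171). It rose to 7.71 ± 3.23 CPM in bIP (n = 3), which over the same bRG libraries is an edgeR log2 change of 2.99 ± 0.653 (SE, adjusted p = 0.0035). Both calls held in all 13 removals and in the gorGor6 table (3.67 and 3.24).

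ARC in aRG depended on library 3. Against aRG, its log2 fold change was 1.36 in N (SE 0.665, edgeR adjusted p = 0.179) and 0.91 in bIP (SE 0.606, edgeR adjusted p = 0.370). With aRG library 3 left out, N was called higher (2.06, edgeR adjusted p = 0.0441). With bRG library 3 left out as well, so was bIP (1.62, edgeR adjusted p = 0.0447). Over all genes, calls in bIP against aRG were 2635 without aRG library 3 and 3704 without both libraries. Between bRG and aRG, ARC had an edgeR log2 change of -2.07 ± 0.620 (SE, adjusted p = 0.173), which DESeq2 called (adjusted p = 0.0363).

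NR4A1, an orphan nuclear receptor, had its highest mean in neurons, without a call by edgeR. It measured 16.4 and 19.4 CPM in N, 10.0, 17.8 and 11.4 in bIP, 5.81, 8.23, 15.3 and 7.90 in bRG, and 7.77, 8.85, 11.5 and 5.57 in aRG. Both neuron libraries lay above all bRG and aRG libraries. The log2 fold change was 1.09 in N against aRG (SE 0.450, edgeR adjusted p = 0.104) and 0.94 in N against bRG (SE 0.450, edgeR adjusted p = 0.158). Both were called with bRG library 3 left out (1.09 with edgeR adjusted p = 0.0395, and 1.29 with edgeR adjusted p = 0.0253). The first comparison holds no bRG library, and its log2 fold change stayed at 1.09. Over all genes, the same removal raised calls from 3320 to 4470 in N against aRG and from 3321 to 4500 in N against bRG.

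IER2 was the steadiest of the 9. It measured 23.8 and 19.3 CPM in N, 25.4, 25.4 and 15.8 in bIP, 29.7, 34.8, 22.9 and 28.4 in bRG, and 34.0, 38.1, 29.9 and 14.0 in aRG. Its log2 fold changes over the 6 comparisons lay between -0.43 and 0.00, and the edgeR adjusted p among the populations was 0.668. The difference of bRG from aRG was 0.00014 on the log2 scale (SE 0.309).

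By comparison, few members were called. In bRG against aRG, 1 of 9 was called (FOS), where 1.26% of all genes were. The median log2 fold change of the members was -1.35, against 0.04 for all genes tested. Without aRG library 3 the members' median was -0.75, and without aRG library 3 and bRG library 3 it was -0.79. In 4 of 9 (FOS, FOSB, JUNB and EGR1) all bRG libraries lay below all aRG libraries, and 5.52% of all genes did not overlap in one direction or the other. In N against bRG, 3 of 9 were called, JUNB and ARC higher and EGR1 lower, where 19.8% of all genes were called. A count of 3 of 9 is too small to set apart from that share. Only the ARC call held in a fit of these 2 populations alone. In N against bRG 5 of 9 did not overlap between the groups, against 36.5% of all genes.

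The other comparisons called no more than 1 member. It was EGR1 in N against aRG (19.8% of all genes called) and in bIP against aRG (18.4%), and ARC in bIP against bRG (16.7%). A count of 1 of 9 is too small to set apart from these shares. The medians were -0.22, -0.50 and 0.66 for the members, and -0.05, -0.04 and -0.09 for all genes tested. In N against aRG the members' median had no steady sign: it was -0.58 without N library 1, 0.04 without the unnumbered neuron library, and -0.34, 0.06 and -0.39 without aRG library 1, 2 and 4. It was -0.27 in bIP against aRG without aRG library 3, and 0.28 in bIP against bRG without bIP library 2. No member was called by edgeR in N against bIP, where 0.113% of all genes were, 1 of 9 had an unadjusted p under 0.05, and DESeq2 called EGR1. The comparisons share libraries, so their values stand side by side and are not independent of one another.

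**Figure D2:**
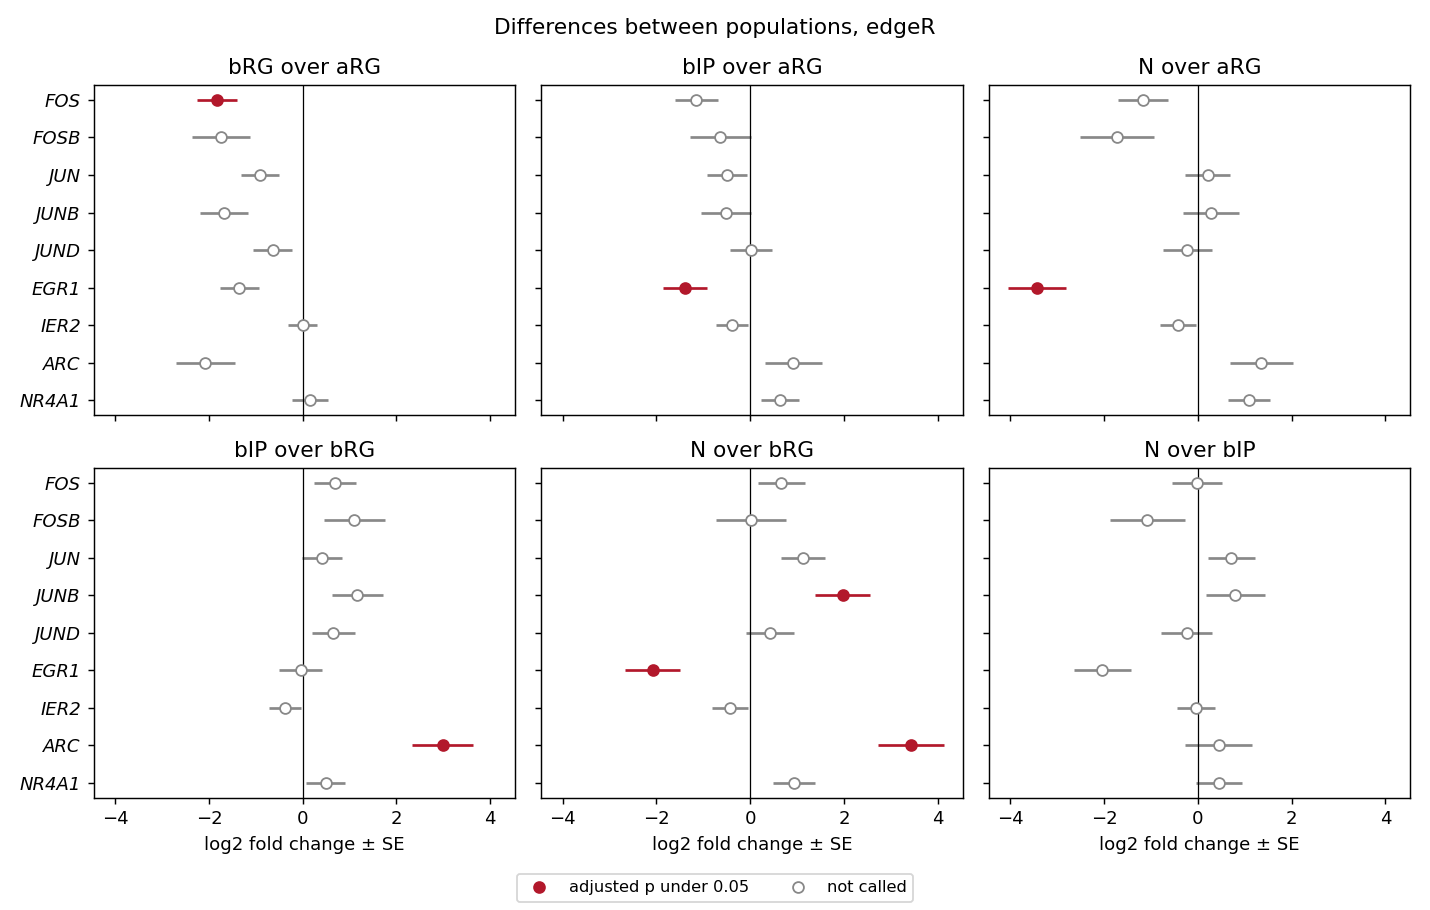
Log2 fold change with its standard error (horizontal) of each gene (vertical) in the 6 comparisons, the first population named over the second. Filled points are edgeR calls: FOS in bRG over aRG (-1.84), EGR1 over aRG in bIP (-1.39) and N (-3.43), ARC over bRG in bIP (2.99) and N (3.43), and JUNB (1.97) and EGR1 (-2.08) in N over bRG.

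Within a population the 9 genes did not go up and down as 1 block. In aRG library 3, FOS, JUN, JUNB, EGR1, ARC and NR4A1 were each the highest of the 4 aRG libraries. In aRG library 4, by contrast, FOS was the second highest at 33.0 CPM while JUN, EGR1, IER2, ARC and NR4A1 were each the lowest of the 4. Among bRG, library 2 was highest for 6 members and library 3 lowest for 5, although NR4A1 was highest in library 3. In bIP library 2, FOSB, JUN, JUND, EGR1, IER2 and NR4A1 were the highest of 3, and FOS and JUNB were the lowest.

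Pearson's r between members, taken over 13 libraries on departures of log2 CPM from the population mean, ran from -0.49 to 0.76 over 36 pairs and was above 0.5 in 8. The pairs with the closest departures were IER2 with ARC (0.76), FOSB with EGR1 (0.71) and JUN with IER2 (0.67). FOS followed none of the others closely (-0.49 to 0.39). These values are a description, since both genes of a pair share the library and its depth. The spread between libraries of a population, as edgeR's biological coefficient of variation, was 31.9% for IER2 and 37.7% to 55.5% for the other 8, against a median of 36.5% over all genes tested.

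**Figure D3:**
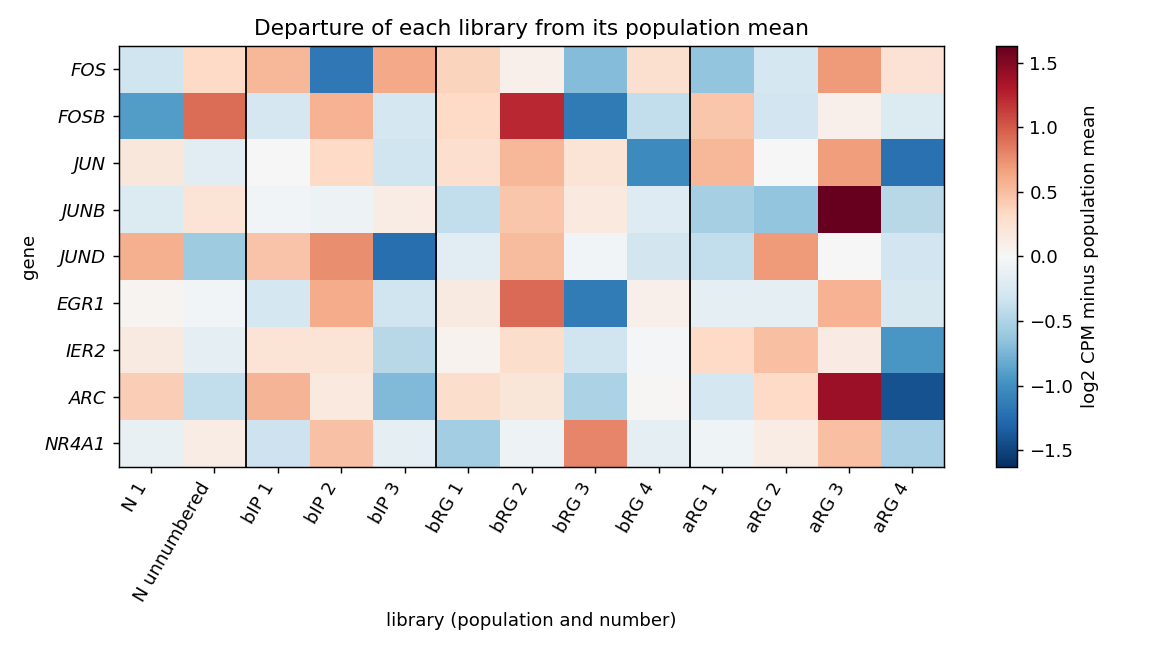
Departure of log2 CPM from the population mean (colour) for each gene (vertical) in each library (horizontal), with lines between populations. The aRG libraries 3 and 4 differ in most genes, and in bIP library 2 FOS (-1.17) and, slightly, JUNB (-0.083) lie below the population mean while the other 7 lie above it.

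The wider response was read from 6 lists with 133 genes tested in all. In bRG against aRG, 0 of them were called higher and 1 lower, HSPB1, or 0.752% of the genes against 1.26% of all genes tested. FOS was called there without a call among 15 other AP-1 and bZIP genes, 20 other immediate early transcription factors or 29 signalling and RNA decay genes of the response. Their median log2 fold changes were -0.04, 0.23 and -0.13. In N against bIP, 0 were called by edgeR. In the other comparisons 24 rose and 13 fell in N against aRG (27.8% of the 133, against 19.8% of all genes tested), 22 and 11 in bIP against aRG (24.8%, against 18.4%), 25 and 14 in N against bRG (29.3%, against 19.8%), and 23 and 11 in bIP against bRG (25.6%, against 16.7%).

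Between neurons and radial glia the lists split. Of the 20 other immediate early transcription factors, 3 rose and 3 fell in N against bRG (median -0.18), and 4 rose and 3 fell in N against aRG (median 0.41). In bIP, 2 rose and 2 fell against either kind of radial glia (medians 0.18 over aRG and -0.06 over bRG). The median of all genes tested was between -0.09 and -0.04 in these 4 comparisons. NR4A3, a sister of NR4A1, measured 48.5 and 40.4 CPM in N, 26.7, 21.1 and 27.9 in bIP, 6.49, 5.67, 5.30 and 6.66 in bRG, and 4.70, 6.85, 6.22 and 2.58 in aRG. It rose over bRG by a log2 fold change of 2.88 in N (SE 0.379, edgeR adjusted p = 3.17e-05) and of 2.06 in bIP (SE 0.350, adjusted p = 0.000427), and all N and bIP libraries lay above all radial glia. NPAS4, a factor that calcium entry induces in neurons, measured 6.01 and 26.1 CPM in the 2 neuron libraries and 0.0952 to 2.78 in bRG (log2 fold change 3.64, edgeR adjusted p = 0.00276). HES1, a Notch target that also marks radial glia, fell by 5.32 on the log2 scale in N against bRG.

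Of the 29 signalling and RNA decay genes, 4 rose and 7 fell in N against bRG (median -0.07). DUSP5 (2.98) and DUSP2 (3.61), phosphatases that switch off ERK kinases, rose there, and ZFP36L1, which destabilises mRNAs and is abundant in radial glia, fell to 11.9 ± 2.28 CPM in N, against 372 ± 71.6 in bRG. Against aRG, 3 rose and 5 fell in N, and 4 rose and 3 fell in bIP. In bIP against bRG, 6 of these genes rose and 4 fell (median 0.07), with PPP1R15A, a regulator of the integrated stress response, at 59.7 ± 7.72 and 21.8 ± 5.89 CPM (log2 fold change 1.46, edgeR adjusted p = 0.00205).

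Of 21 neuronal activity effectors, which act at synapses and in growth, 8 rose and 2 fell in N against bRG (median 0.23), and 11 rose and 2 fell in bIP against bRG (median 1.36). Against aRG, 8 rose and 2 fell in N (median 0.69), and 10 rose and 2 fell in bIP (median 1.57). Called in N against bRG were NRN1 (2.51), SYT4 (3.42) and PCDH8 (3.56), which rose, and RASGRP1 (-3.29), which fell. Many of these genes are also general neuronal genes. Of 36 upstream regulators 7 rose and 0 fell in N against bRG (median 0.21), a share near the 19.8% of all genes called there, with the serum response factor partner MRTFA at 88.5 ± 11.8 CPM in N and 34.9 ± 8.36 in bRG, and the EGR1 corepressor NAB1 at 121 ± 10.2 and 47.4 ± 17.5. These regulators had 9 higher and 1 lower call in N against aRG, 6 and 2 in bIP against aRG, and 4 and 2 in bIP against bRG. Of the 15 other AP-1 and bZIP genes, MAF was the 1 called in N against bRG and against aRG, and it fell by 3.22 and 3.61 on the log2 scale. Heat shock genes had 3 higher calls and 1 lower in N against bRG (median 0.52), with the chaperones HSPA8 (1.32), HSP90AB1 (1.00) and DNAJB1 (1.25) higher and HSPB1 lower. In N against aRG 1 of them fell, in bIP against aRG 2, and in bIP against bRG 1.

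**Figure D4:**
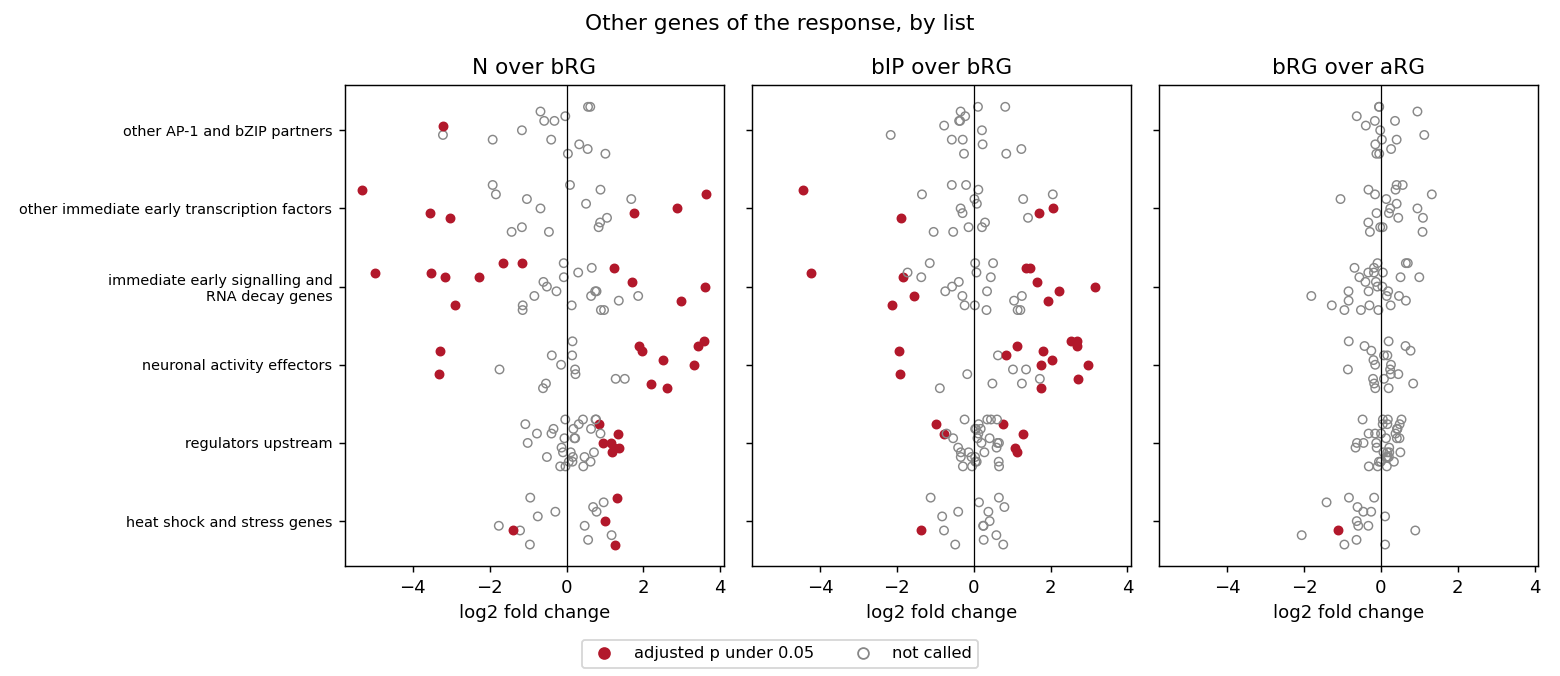
Log2 fold change (horizontal) of each gene of the 6 lists (vertical) in 3 comparisons, with filled points for edgeR calls. In N over bRG and bIP over bRG the calls go both ways, and in bRG over aRG HSPB1 is the single call.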

How the data were processed

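Unnormalized counts by gene symbol were deposited by the authors in 2 tables. The hg38 table (18137 genes) served for the results, and a table whose name gives gorGor6 served as an alternative. STAR and hg38 stand per the submitters' processing notes. Counter, annotation and strand setting: not given in the sources used here. RNA was amplified with 12 to 17 PCR cycles without molecular identifiers, per the labels' protocols. A row with a blank gene name, 0.00351% to 0.00768% of gorGor6 counts, was left out. The number of 1 neuron column is on none of the neuron labels, so that library is called unnumbered.

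All 13 libraries entered 1 quasi-likelihood fit with a mean per population (edgeR 4.0.16 in R 4.3.3, TMM, filterByExpr at a minimum count of 10). A log2 change (log2 fold change) was divided by the root of its F value to give its SE. CPM are on TMM-scaled library sizes, and log2 CPM used a prior count of 2. The test was checked on simulated counts drawn independently for each library, which cannot show the effect of outlying libraries or of shared replicate numbers. No library was a duplicate of another of its population (chi-square of 10.6 to 92.4 for each degree of freedom). DESeq2 1.42.0 and other settings were alternatives. All 9 members are named in each comparison, and of each list at most 4 called genes a comparison with the smallest p. The members, lists and tests were chosen with earlier results of these data known.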

Additional observations from a re-analysis of the deposited data

Results flagged for a closer look

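JUNB and EGR1 in aRG library 3 stood apart from the other 3 aRG libraries. JUNB measured 27.7 CPM there and 5.57 to 6.39 in the others, a gap of 0.963 of the whole range. EGR1 measured 31.6 CPM there and 17.7 to 19.0 in the others, a gap of 0.910 of the range. Both gaps passed Dixon's critical value for 4 values. In all, 20 groups of 4 libraries were tested in this way, of which chance would put about 1 past that value. The same library held the highest summed choroid plexus markers of the 13 (7821 CPM, of which TTR made up 7626). It also held the highest summed endothelial markers (125 CPM, of which CLDN5 made up 78.8). Without CLDN5, the other 6 endothelial genes summed to at most 46.3 CPM in aRG and at most 67.3 in bRG. The part of such cells in the JUNB and EGR1 levels was not tested.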

How the results depend on the processing

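Of 54 member differences (9 genes in 6 comparisons), 41 kept their direction in every alternative run. The 13 that did not were never called, in edgeR or in the alternative that turned them, and the cause was not tested. Leaving out each library in turn gave 0 to 1 called members in bRG against aRG and in bIP against aRG, 1 to 2 in N against aRG, 1 in each removal in bIP against bRG, 1 to 4 in N against bRG, 0 in N against bIP, and 2 to 4 among the populations. A lone neuron library is then assumed to vary like the other groups. DESeq2 called 3 members in bRG against aRG, 2 in bIP against aRG, 1 in N against bIP and 5 among the populations. Over all 16804 genes it called 374, 3795, 169 and 4959 there, against 211, 3100, 19 and 3788 by edgeR. In bIP against aRG, DESeq2 size factors, no low-count filter and the gorGor6 table each called 0. A fit of only N and bRG called 1. Chosen after seeing the data, leaving out aRG library 3 and bRG library 3 called 0 in bRG against aRG, 2 in bIP against aRG, 4 in N against aRG and 2 in bIP against bRG. In N against aRG the median of all genes was -0.29 in the gorGor6 table.

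Whether the replicate numbers pair the libraries was not settled. Same-numbered libraries correlated at -0.013 to 0.387 in their departures from the population means, with no value for libraries of different numbers set beside them. Of 4 aRG libraries, 2 matched the bRG library of their own number best. With the number as a replicate block, 0 members were called in bRG against aRG and 1 in N against bRG. The block turned JUND to -0.17 (bIP against aRG), 0.29 (N against aRG) and 0.46 (N against bIP), FOSB to -1.36 (N against bRG) and IER2 to 0.042 (N against bIP).

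Other turned values, on the log2 scale, were these. In bRG against aRG, IER2 was -0.0020 without a filter, -0.091 in the gorGor6 table and -0.21 to 0.16 without single libraries, and NR4A1 was -0.0050 without both libraries numbered 3 and -0.20 to 0.34 without single ones. In bIP against aRG, JUNB was 0.42 without both and -0.74 to 0.42 without single libraries, and JUND was -0.20 in the gorGor6 table, -0.0076 without both and -0.36 to 0.42 without single ones. EGR1 in bIP against bRG was 0.049 in the gorGor6 table and -0.43 to 0.35. FOSB in N against bRG was -0.054 with DESeq2, -0.057 with its size factors, -0.053 in the fit of 2 populations, -0.27 without both and -1.38 to 0.71 without single libraries. Without single libraries, JUN (-0.11 to 0.44) and JUND (-0.91 to 0.26) in N against aRG, JUND in N against bRG (-0.27 to 0.90), and FOS (-0.41 to 0.27), JUND (-0.93 to 0.24), IER2 (-0.24 to 0.11) and ARC (-0.020 to 0.80) in N against bIP turned as well. Depth limits FOSB and ARC most, at 5 to 71 and 5 to 109 counts a library.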

Other observations

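Among 10721 genes with a mean of at least 10 CPM, the 3 whose log2 CPM over the 13 libraries was most like that of FOS were SLC37A4 (Pearson's r = 0.85), NUP42 (0.84) and RBM15 (0.84). For the mean of the 9 members they were BAIAP2L1 (0.81), SMTN (0.80) and TEDC1 (0.79). Points share library and population, and the values are a description.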
